A study of Mus musculus with 12 samples.

Results

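The 10 genes described here encode chains of cytokine receptors that CD8+ T cells use to sense IL-2, IL-4, IL-7, IL-12, IL-15, IL-18 and IL-21. They were Il7r, Il2ra, Il2rb, Il2rg, Il15ra, Il21r, Il4ra, Il18r1, Il18rap and Il12rb2, found by gene symbol in a table of 56941 genes, and all 10 passed the filter on low counts. RNA was sequenced in bulk from CD8+ T cells of Panc02 tumours, which derive from a mouse pancreatic cancer line, in C57BL/6J mice of wild type genotype. The question was what distinguishes CD8+ T cells that carry asGM1, the asialo form of the GM1 glycolipid on the outer membrane, and how PD-1 blockade alters them. The 4 groups of 3 libraries were anti-PD-1 asGM1+, anti-PD-1 asGM1-, isotype ctrl asGM1+ and isotype ctrl asGM1- cells, all sorted as DAPI- CD45.2+ CD8+ cells with no T cell receptor gate named. Age of the mice, time and dose of antibody and whether each library came from 1 mouse are not stated in the sources used here. Tests therefore measure spread among libraries, part of which may be technical.

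These chains combine in a few defined ways. IL-7 binds IL-7 receptor alpha (Il7r), IL-21 binds Il21r and IL-4 binds Il4ra, and each of these pairs with the common gamma chain Il2rg. IL-2 and IL-15 share the beta chain Il2rb and Il2rg, while Il2ra and Il15ra raise the affinity for one cytokine each. IL-18 binds Il18r1, which needs the accessory chain Il18rap to signal through MyD88, and IL-12 signals through Il12rb1 and Il12rb2, of which Il12rb2 recruits STAT4. In CD8+ T cells, IL-7 receptor is known for marking naive and memory cells and for being lost on activation, Il2rb for sustaining effector and memory cells, and IL-12 with IL-18 for inducing interferon gamma without antigen.

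The 3 chains whose RNA rose under anti-PD-1 in both populations are shown here by the 250 bases before their start site, 5′ to 3′ in the direction of transcription, from RefSeq on GRCm38.p6. Capitals mark matches to the letters searched, which were TTCNNNGAA (STAT), TGANTCA (AP-1), TGTGGT (RUNX), GTAAACA (forkhead), AGGTGTGA (T-box) and CAGGAAGT (ETS), on both strands. The windows lie at chr15:9529877-9530126 on the minus strand for Il7r, chr1:40515112-40515361 on the plus strand for Il18rap and chr6:67376189-67376438 on the minus strand for Il12rb2.
Il7r: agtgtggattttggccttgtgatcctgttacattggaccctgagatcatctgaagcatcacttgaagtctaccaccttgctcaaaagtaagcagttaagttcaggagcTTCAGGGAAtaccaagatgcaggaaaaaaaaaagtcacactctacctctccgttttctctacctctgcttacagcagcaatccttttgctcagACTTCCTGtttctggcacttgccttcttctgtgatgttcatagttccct
Il18rap: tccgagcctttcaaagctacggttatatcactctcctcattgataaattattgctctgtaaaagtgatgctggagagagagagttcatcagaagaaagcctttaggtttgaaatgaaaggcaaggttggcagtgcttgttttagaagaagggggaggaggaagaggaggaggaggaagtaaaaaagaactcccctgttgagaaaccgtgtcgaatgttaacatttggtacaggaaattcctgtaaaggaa
Il12rb2: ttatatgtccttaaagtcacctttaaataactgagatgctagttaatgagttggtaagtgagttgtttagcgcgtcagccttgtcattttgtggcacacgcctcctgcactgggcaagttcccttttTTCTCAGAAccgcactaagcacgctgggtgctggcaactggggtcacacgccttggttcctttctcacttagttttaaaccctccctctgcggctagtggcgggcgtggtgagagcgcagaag
The Il7r window held a STAT match starting 142 bases before the start site, TTCAGGGAA, and an ETS match on the other strand starting 49 bases before it, ACTTCCTG. The Il12rb2 window held a STAT match, TTCTCAGAA, starting 123 bases before the start site. The Il18rap window held none of the 6 motifs. Of 9 members with a window (Il2rb had none in the table), Il7r, Il12rb2 and Il18r1 held a STAT match, against 7.02% of 32851 mouse windows of the same length. The RUNX letters stood in Il21r and Il2rg (14% of windows), forkhead in Il21r (3.17%), AP-1 in Il15ra (6.75%), ETS in Il7r (2.69%) and T-box in no member (1.12%). Il18r1 had 3 windows and Il15ra 2, which gave them more chances of a match. Matches to letters describe the sequence and are not evidence of binding, and the motifs were chosen after the counts were seen.

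Libraries held 58.1 to 73.2 M (mega) counts, of which the 10 genes took 0.675 to 0.810%. The lowest count of any member was 1600, for Il15ra, so counting error was small beside the spread between libraries. Cd8a ran from 1590.2 to 2581 CPM (counts per 1 M, scaled by the TMM factors) and Cd3e from 1018 to 1299.8 CPM in all 12 libraries, while of the B cell and NK lists Ms4a1, Pax5 and Ncr1 reached at most 1.85 CPM, and Ighm and Fcer1g averaged up to 196 and 255 CPM in a group. Both anti-PD-1 libraries numbered 2 stood apart in heat shock RNA: Hspa1a was at 146 CPM in asGM1+ and 151 CPM in asGM1- cells, against 22.5 to 32.6 CPM in the other 4 anti-PD-1 libraries. Results are therefore also given without these libraries where the call changed. Every isotype library had more Hspa1a than any anti-PD-1 library, at 343 to 440 CPM in asGM1+ and 188 to 355 CPM in asGM1- cells. Heat shock RNA thus also differed with treatment, and its part in the treatment comparisons was not tested.

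Per kilobase of transcript, the shared signalling chains were by far the most abundant. Il2rg averaged 1022 ± 147 CPM per kb and Il2rb 849 ± 120 CPM per kb over all libraries (SD, n = 12), ranges that overlapped. Il21r followed at 110.1 ± 10.7 CPM per kb, then Il12rb2 at 58.6 ± 34.5 and Il18rap at 50.7 ± 12.2 CPM per kb. Il7r at 26.8 ± 10.7, Il18r1 at 24.1 ± 2.96 and Il2ra at 23.8 ± 1.81 CPM per kb did not differ beyond their spread, and neither did Il12rb2 and Il18rap. Il4ra at 11.3 ± 1.62 and Il15ra at 7.61 ± 1.11 CPM per kb were the lowest. The order changed with the group, because 3 chains moved far more than the rest. The highest library exceeded the lowest 5.82 times for Il12rb2, 3.86 times for Il7r and 2.15 times for Il18rap, against 1.29 (Il2ra) to 1.66 times (Il2rg) for the other 7. Transcript lengths came from GRCm38, so the order between genes close in level is approximate.

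Under anti-PD-1, RNA of the receptor chains for IL-7, IL-12 and IL-18 was higher in both populations: Il12rb2 by 3.24-fold in asGM1+ and 2.87-fold in asGM1- cells, Il7r by 2.07-fold and 1.74-fold, and Il18rap by 1.57-fold and 1.37-fold. The common gamma chain Il2rg fell to 0.696 times its isotype level in asGM1+ cells. The other 6 chains did not pass in either population. In asGM1+ cells 3 of 10 members rose and 1 fell, with 6.73% of all 18657 tested genes called in either direction, 3.72% higher and 3.01% lower. In asGM1- cells 3 of 10 rose and none fell, with 8.57% of all genes called, 4.11% higher and 4.45% lower. Averaged over the populations, the same 4 members passed by edgeR's quasi-likelihood test (Benjamini-Hochberg adjusted p under 0.05), with 18.1% of all genes called (9.12% higher, 9.02% lower), and the median log2 fold change was 0.15 over the members and -0.02 over all genes. Same-numbered libraries of a treatment were correlated, and this average counts them as independent. Its adjusted p values may therefore be too small and its calls too many. These are RNA levels of a sorted bulk population, in which fewer cells of a type and less RNA per cell cannot be told apart, and receptor protein was not measured.

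**Figure D1:**
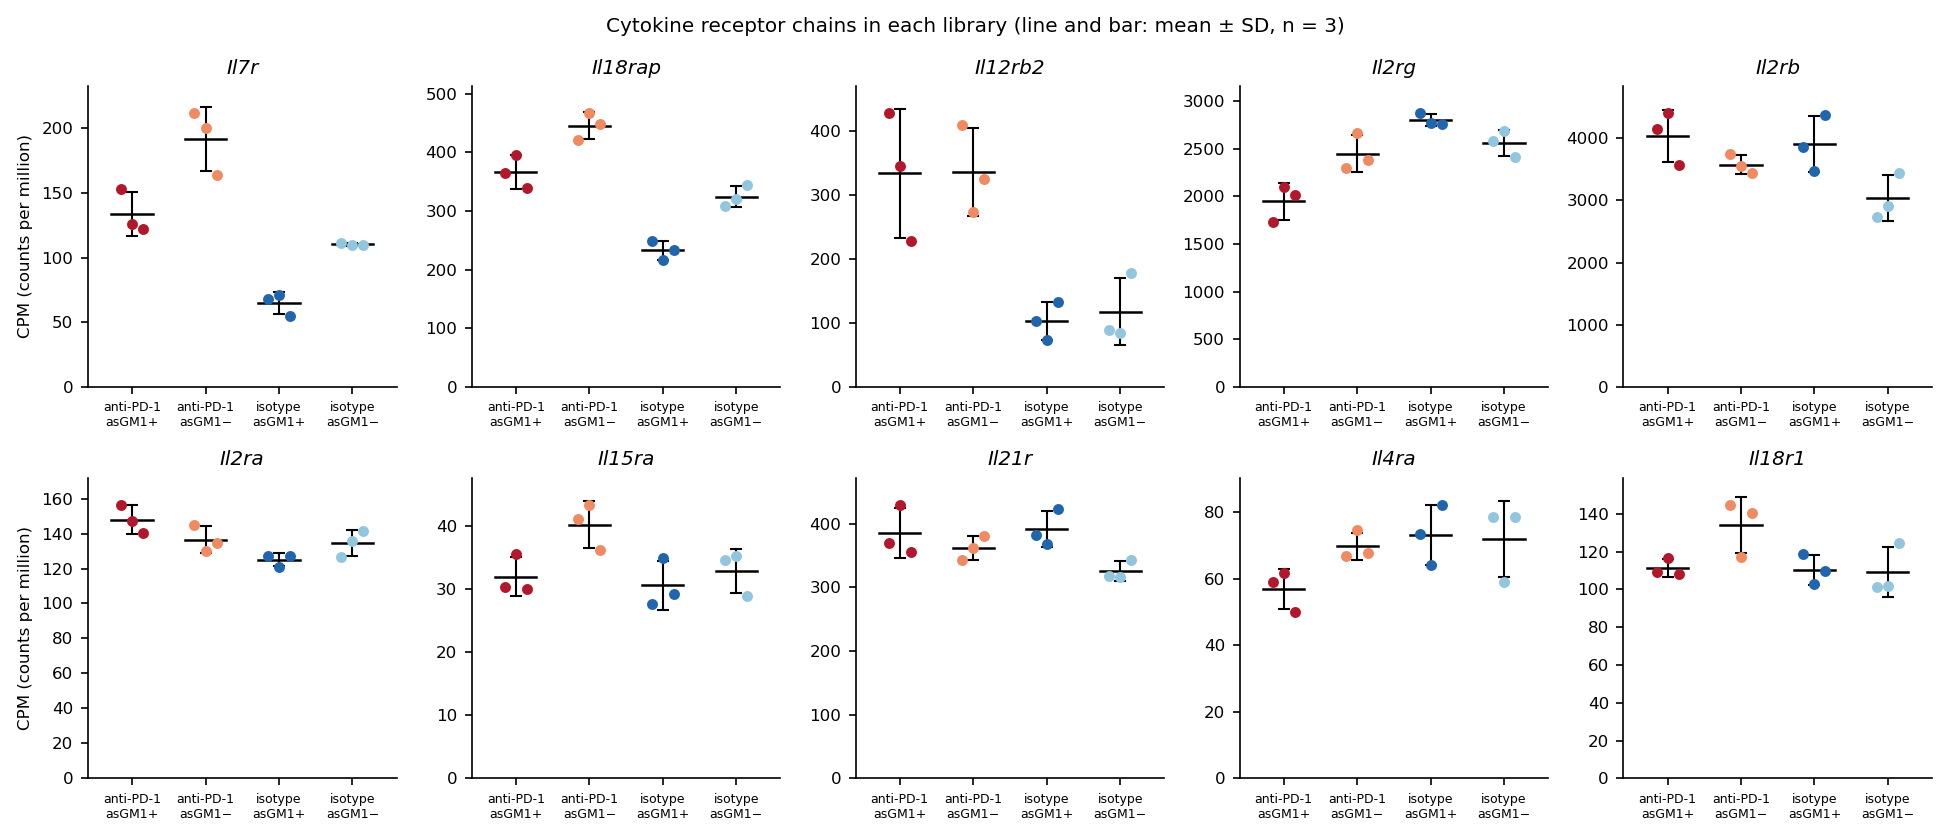
Each point is 1 library, with CPM on a linear axis from 0, 1 panel per gene and the 4 groups from left to right as anti-PD-1 asGM1+, anti-PD-1 asGM1-, isotype asGM1+ and isotype asGM1-; lines and bars give mean ± SD (n = 3). Il12rb2 lies at 227 to 427 CPM in all anti-PD-1 libraries and at 73.3 to 178 CPM in all isotype libraries, while Il2ra stays between 121 and 156 CPM throughout.

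Il12rb2, the chain that makes T cells responsive to IL-12, had 427, 345 and 227 CPM in anti-PD-1 asGM1+ libraries and 409, 273 and 325 CPM in anti-PD-1 asGM1- libraries. It had 103, 73.3 and 132 CPM in isotype asGM1+ libraries and 89.5, 84.0 and 178 CPM in isotype asGM1- libraries. All 6 anti-PD-1 libraries were above all 6 isotype libraries, and the spread within groups was wide. The log2 fold change, anti-PD-1 minus isotype, was 1.69 ± 0.33 in asGM1+ cells (standard error, edgeR adjusted p = 0.00961) and 1.52 ± 0.32 in asGM1- cells (edgeR adjusted p = 0.0143). The call in asGM1- cells was lost without the anti-PD-1 asGM1- library numbered 1 (edgeR adjusted p = 0.0602) and without the isotype asGM1- library numbered 1 or 2 (edgeR adjusted p = 0.0689 and 0.0560). The average over both populations, 1.61 ± 0.23, kept its call in all 18 alternatives (highest adjusted p = 0.00425). None of these took same-numbered libraries within a treatment as a block of their own.

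Il7r, the private chain for IL-7, had 153, 126 and 123 CPM in anti-PD-1 asGM1+ libraries, against 68.3, 70.7 and 54.8 CPM in isotype asGM1+ libraries. In asGM1- cells it had 212, 200.3 and 164 CPM under anti-PD-1, against 111, 109 and 109.9 CPM under isotype. Neither pair of groups overlapped, and anti-PD-1 asGM1+ cells lay slightly above isotype asGM1- cells. The log2 fold change was 1.05 ± 0.13 in asGM1+ cells (edgeR adjusted p = 0.000625) and 0.80 ± 0.13 in asGM1- cells (edgeR adjusted p = 0.00344). Its difference between populations, 0.25 ± 0.18, did not pass (interaction, edgeR adjusted p = 0.869, 95% interval -0.14 to 0.65).

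Il18rap, the accessory chain of the IL-18 receptor, had 365, 396 and 339 CPM in anti-PD-1 asGM1+ libraries, against 249, 217 and 233 CPM in isotype asGM1+ libraries. In asGM1- cells it had 421, 466 and 449 CPM under anti-PD-1, against 308, 320.4 and 345 CPM under isotype. Both pairs of groups were separate. The log2 fold change was 0.65 ± 0.09 in asGM1+ cells (edgeR adjusted p = 0.00133) and 0.46 ± 0.09 in asGM1- cells (edgeR adjusted p = 0.00963). Without both anti-PD-1 libraries numbered 2, the value in asGM1- cells was 0.42 and lost its call (edgeR adjusted p = 0.0501).

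Il18r1, the chain that binds IL-18 and whose gene lies beside Il18rap on chromosome 1, did not pass in either population, and its difference from Il18rap was not tested. It had 109, 116 and 108 CPM in anti-PD-1 asGM1+ libraries, against 119, 103 and 110.0 CPM in isotype asGM1+ libraries. In asGM1- cells it had 145, 117 and 140.4 CPM under anti-PD-1, against 101, 102 and 124 CPM under isotype. Groups overlapped in both populations. The log2 fold change was 0.01 in asGM1+ cells (95% interval -0.23 to 0.25) and 0.30 in asGM1- cells (0.06 to 0.54, edgeR adjusted p = 0.125).

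Il2rg, the gamma chain shared by the receptors for IL-2, IL-4, IL-7, IL-15 and IL-21, had 1732, 2098 and 2018 CPM in anti-PD-1 asGM1+ libraries, against 2871, 2772 and 2763 CPM in isotype asGM1+ libraries. In asGM1- cells it had 2299, 2666 and 2377 CPM under anti-PD-1, against 2579, 2688 and 2412 CPM under isotype. Anti-PD-1 asGM1+ libraries were the 3 lowest of the 12, and the asGM1- groups overlapped. The log2 fold change was -0.52 ± 0.09 in asGM1+ cells (edgeR adjusted p = 0.00680) and -0.06 ± 0.09 in asGM1- cells (95% interval -0.27 to 0.14). Of 9 T cell markers, 2 also fell and none rose in asGM1+ cells (median -0.33), and none passed in asGM1- cells (median -0.0019). Cd8a averaged 1720 ± 136 CPM in anti-PD-1 asGM1+ and 2402 ± 188 CPM in isotype asGM1+ cells (SD, n = 3 each; log2 fold change -0.48 ± 0.09, edgeR adjusted p = 0.00838). Cd3g, a chain of the T cell receptor complex, averaged 1551 ± 169 CPM in anti-PD-1 asGM1+ and 2309 ± 323 CPM in isotype asGM1+ cells (-0.57 ± 0.14, edgeR adjusted p = 0.0269), while Cd3e differed by 0.02 ± 0.09. The summed level of the 9 was 9644 to 12556 and 10744.5 to 12599.5 CPM in anti-PD-1 asGM1+ and asGM1- libraries, and 12405 to 14011 and 11841 to 12539 CPM in isotype asGM1+ and asGM1- libraries. Their part in the value of Il2rg was not tested.

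Il2rb, the beta chain of the IL-2 and IL-15 receptors, had 4145, 4402 and 3578 CPM in anti-PD-1 asGM1+ libraries, against 3862, 3480.5 and 4377 CPM in isotype asGM1+ libraries. In asGM1- cells it had 3744, 3547 and 3434 CPM under anti-PD-1, against 2739, 2915 and 3448 CPM under isotype. Groups overlapped in both populations. The log2 fold change was 0.05 in asGM1+ cells (95% interval -0.21 to 0.31) and 0.24 in asGM1- cells (-0.02 to 0.49), and neither passed. Il21r, the private chain for IL-21, had 369, 429.8 and 356 CPM in anti-PD-1 asGM1+ libraries, against 383, 368 and 423 CPM in isotype asGM1+ libraries. In asGM1- cells Il21r had 343, 363 and 381 CPM under anti-PD-1, against 317, 316 and 344 CPM under isotype. Neither comparison of Il21r passed, with 95% intervals of -0.23 to 0.18 and -0.05 to 0.36 on the log2 scale.

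Il2ra, the alpha chain that forms the high-affinity IL-2 receptor and is induced on activation, had 156, 147 and 140.2 CPM in anti-PD-1 asGM1+ libraries, against 127, 121 and 127 CPM in isotype asGM1+ libraries. In asGM1- cells it had 145, 129.8 and 135 CPM under anti-PD-1, against 126, 136 and 141 CPM under isotype. The asGM1+ groups were separate and the asGM1- groups overlapped, but the log2 fold change in asGM1+ cells, 0.24 (95% interval 0.07 to 0.42), did not pass (edgeR adjusted p = 0.0992, DESeq2 adjusted p = 0.0387). Il15ra, which presents IL-15, had 30.3, 35.5 and 29.9 CPM in anti-PD-1 asGM1+ libraries, against 27.5, 34.9 and 29.2 CPM in isotype asGM1+ libraries. In asGM1- cells Il15ra had 41.0, 43.3 and 36.1 CPM under anti-PD-1, against 34.5, 35.2 and 28.8 CPM under isotype. The asGM1- groups of Il15ra did not overlap, and its log2 fold change there, 0.29 (0.01 to 0.57), did not pass (edgeR adjusted p = 0.209). Il4ra, the IL-4 binding chain, had 59.2, 61.7 and 50.2 CPM in anti-PD-1 asGM1+ libraries, against 73.5, 64.1 and 82.3 CPM in isotype asGM1+ libraries. In asGM1- cells Il4ra had 67.0, 74.6 and 67.8 CPM under anti-PD-1, against 78.7, 58.9 and 78.7 CPM under isotype. Its asGM1+ groups were separate, but the log2 fold change of -0.36 (-0.66 to -0.07) did not pass (edgeR adjusted p = 0.147). Counting groups alone, 6 of 10 members did not overlap between treatments in asGM1+ cells and 4 of 10 in asGM1- cells, where 24% and 30.3% of all genes did not. The members above isotype were 4 in each population (background 11.8% and 14.5%) and those below it 2 and 0 (12.2% and 15.8%).

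**Figure D2:**
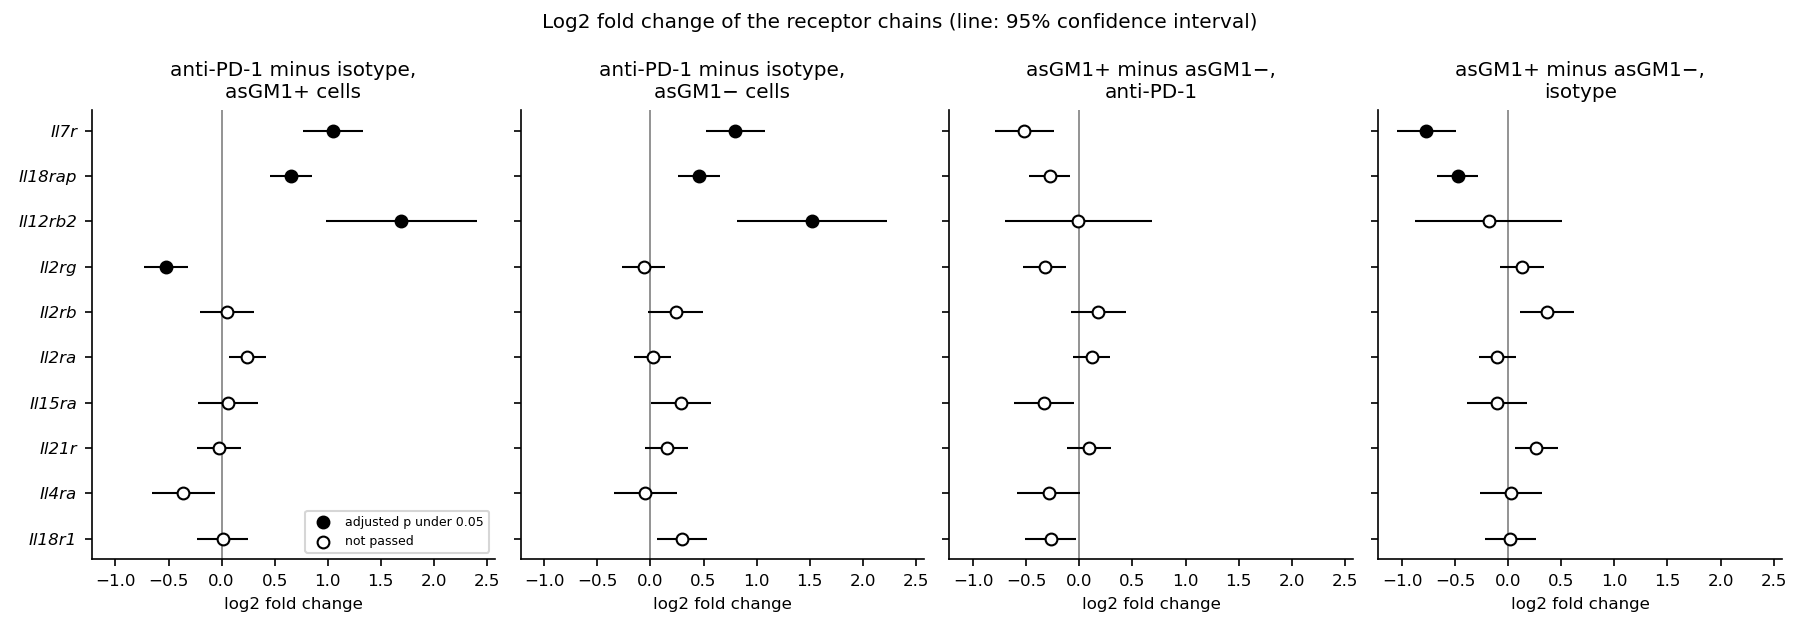
Log2 fold change of each gene on the x axis with its 95% confidence interval, for anti-PD-1 minus isotype in asGM1+ and asGM1- cells and for asGM1+ minus asGM1- cells under anti-PD-1 and isotype; filled points passed an adjusted p under 0.05. Il7r, Il18rap and Il12rb2 lie right of 0 with filled points in both treatment panels, and Il7r and Il18rap lie left of 0 in both population panels, with filled points under isotype.

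Between the populations, asGM1+ cells had less Il7r and Il18rap RNA than asGM1- cells. Averaged over the treatments, the log2 fold change of asGM1+ minus asGM1- cells was -0.65 ± 0.09 for Il7r (edgeR adjusted p = 0.00250) and -0.38 ± 0.06 for Il18rap (edgeR adjusted p = 0.00677), and the other 8 members did not pass. With 2 of 10 lower and none higher, 3.59% of all genes were called, 1.55% higher and 2.04% lower. The median was -0.11 over the members and -0.01 over all genes.

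Under isotype, Il7r was at 0.586 times and Il18rap at 0.718 times the asGM1- level in asGM1+ cells, and these 2 members passed, where 1.31% of all genes were called (0.364% higher, 0.943% lower). The call for Il7r was lost without the isotype asGM1- library numbered 1 (edgeR adjusted p = 0.0589). That for Il18rap was lost without any of 6 single libraries (the 3 isotype asGM1-, isotype asGM1+ numbered 2 or 3, and anti-PD-1 asGM1- numbered 3), at adjusted p = 0.0523 to 0.0858, and with only the 6 isotype libraries in the fit (edgeR adjusted p = 0.0962). Both calls held with same-numbered libraries of a treatment as a replicate block (edgeR adjusted p = 0.00531 for Il7r and 0.0139 for Il18rap). Under anti-PD-1 no member passed by edgeR or limma voom and 2 passed by DESeq2; 5 had an unadjusted edgeR p under 0.05, and 1.58% of all genes were called. Il7r was then at 0.697 times the asGM1- level, a log2 fold change of -0.52 ± 0.13 (edgeR adjusted p = 0.0734), and Il18rap at 0.823 times, -0.28 ± 0.09 (edgeR adjusted p = 0.187). In both treatments every asGM1+ library was below every asGM1- library for both genes. With same-numbered libraries of a treatment taken as pairs, Il7r under anti-PD-1 passed (edgeR adjusted p = 0.0157 with the replicate block), as it did with DESeq2 (adjusted p = 0.00763) and without the isotype asGM1+ library numbered 3 (edgeR adjusted p = 0.0445). Without both anti-PD-1 libraries numbered 2 its adjusted p was 0.553.

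No chain of the IL-2 and IL-15 receptors passed between populations by edgeR without a block. Il2rb was higher in all asGM1+ than in all asGM1- libraries under isotype, a log2 fold change of 0.36 ± 0.12 (edgeR adjusted p = 0.206), and with pairs as a replicate block it passed (adjusted p = 0.0238). Averaged over the treatments Il2rb differed by 0.27 ± 0.08 (edgeR adjusted p = 0.112), which also passed with the replicate block (adjusted p = 0.0105) and with DESeq2 (adjusted p = 0.0378). Il21r lay 0.27 ± 0.09 higher in asGM1+ cells under isotype without passing (edgeR adjusted p = 0.252). Il2ra, by contrast, averaged 148 ± 8.11 CPM in anti-PD-1 asGM1+ and 136 ± 7.65 CPM in anti-PD-1 asGM1- cells, and 125 ± 3.54 CPM in isotype asGM1+ and 134 ± 7.47 CPM in isotype asGM1- cells (SD, n = 3 each), with a difference averaged over treatments of 0.01 (95% interval -0.12 to 0.13). Il12rb2 differed between populations by -0.01 under anti-PD-1 (95% interval -0.70 to 0.68) and -0.19 under isotype (-0.88 to 0.51), both wide intervals. Il15ra, Il4ra and Il18r1 lay below asGM1- libraries in all asGM1+ libraries under anti-PD-1, by -0.33, -0.29 and -0.27 on the log2 scale, without passing (edgeR adjusted p = 0.327, 0.446 and 0.357). Counting groups alone, 6 of 10 members did not overlap between populations under anti-PD-1 and 5 of 10 under isotype, where 19.7% and 16.3% of all genes did not. Under anti-PD-1 none was above and 6 were below the asGM1- group (background 10.2% and 9.51%), and under isotype 3 were above and 2 below it (7.94% and 8.4%).

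Il2rg was the one member whose populations were separate in opposite directions under the 2 treatments. All asGM1+ libraries were below all asGM1- libraries under anti-PD-1 (log2 fold change -0.33 ± 0.09, edgeR adjusted p = 0.134) and above them under isotype (0.13 ± 0.09, edgeR adjusted p = 0.644). With the replicate block the difference under anti-PD-1 passed (adjusted p = 0.0138), as it did with DESeq2 (adjusted p = 0.0208). The difference of differences was -0.46 ± 0.13 and did not pass (interaction, edgeR adjusted p = 0.470). No member and none of the 18657 genes (0%) passed the interaction by edgeR, with 1 member (Il2rg) and 1329 genes at an unadjusted p under 0.05. Limma voom called 0 genes, DESeq2 138 and the replicate block 5, with 0 members each.

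Ratios between partner chains, from CPM per kb, show how the make-up of each receptor's RNA shifted. They are descriptions with no test, and the pairs were chosen after the counts were seen. The IL-18 receptor had 2.38, 2.42 and 2.24 Il18rap per Il18r1 in anti-PD-1 asGM1+ libraries and 2.08, 2.84 and 2.28 in anti-PD-1 asGM1- libraries. It had 1.499, 1.505 and 1.513 in isotype asGM1+ libraries and 2.18, 2.24 and 1.98 in isotype asGM1- libraries, so isotype asGM1+ cells stood below all other libraries. For the IL-12 receptor, the ratio of Il12rb2 to Il12rb1 averaged 2.57 ± 0.55 in anti-PD-1 asGM1+ and 2.79 ± 0.43 in anti-PD-1 asGM1- cells, against 0.840 ± 0.18 in isotype asGM1+ and 1.37 ± 0.57 in isotype asGM1- cells (SD, n = 3 each). Il12rb1 itself averaged 139 ± 27.9 and 129.7 ± 12.3 CPM in anti-PD-1 asGM1+ and asGM1- cells, and 131 ± 10.5 and 92.1 ± 2.52 CPM in isotype asGM1+ and asGM1- cells. All anti-PD-1 libraries had more than 2 Il12rb2 per Il12rb1, and 1 isotype asGM1- library (2.03) reached that level.

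In the gamma chain family, Il7r made up a small and variable fraction. Its ratio to Il2rg averaged 0.0357 ± 0.0083 in anti-PD-1 asGM1+ and 0.0403 ± 0.0061 in anti-PD-1 asGM1- cells, against 0.0118 ± 0.0015 in isotype asGM1+ and 0.0221 ± 0.0012 in isotype asGM1- cells (SD, n = 3 each). Il2rb per Il2rg was 1.33, 1.17 and 0.987 in anti-PD-1 asGM1+ libraries, above the 0.591 to 0.907 of the other 9 libraries. Il2ra per Il2rb was 0.0251 to 0.0294 in anti-PD-1 asGM1+ and 0.0275 to 0.0294 in anti-PD-1 asGM1- libraries, which overlapped, and 0.0218 to 0.0261 in isotype asGM1+ and 0.0307 to 0.0350 in isotype asGM1- libraries, which were separate.

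**Figure D3:**
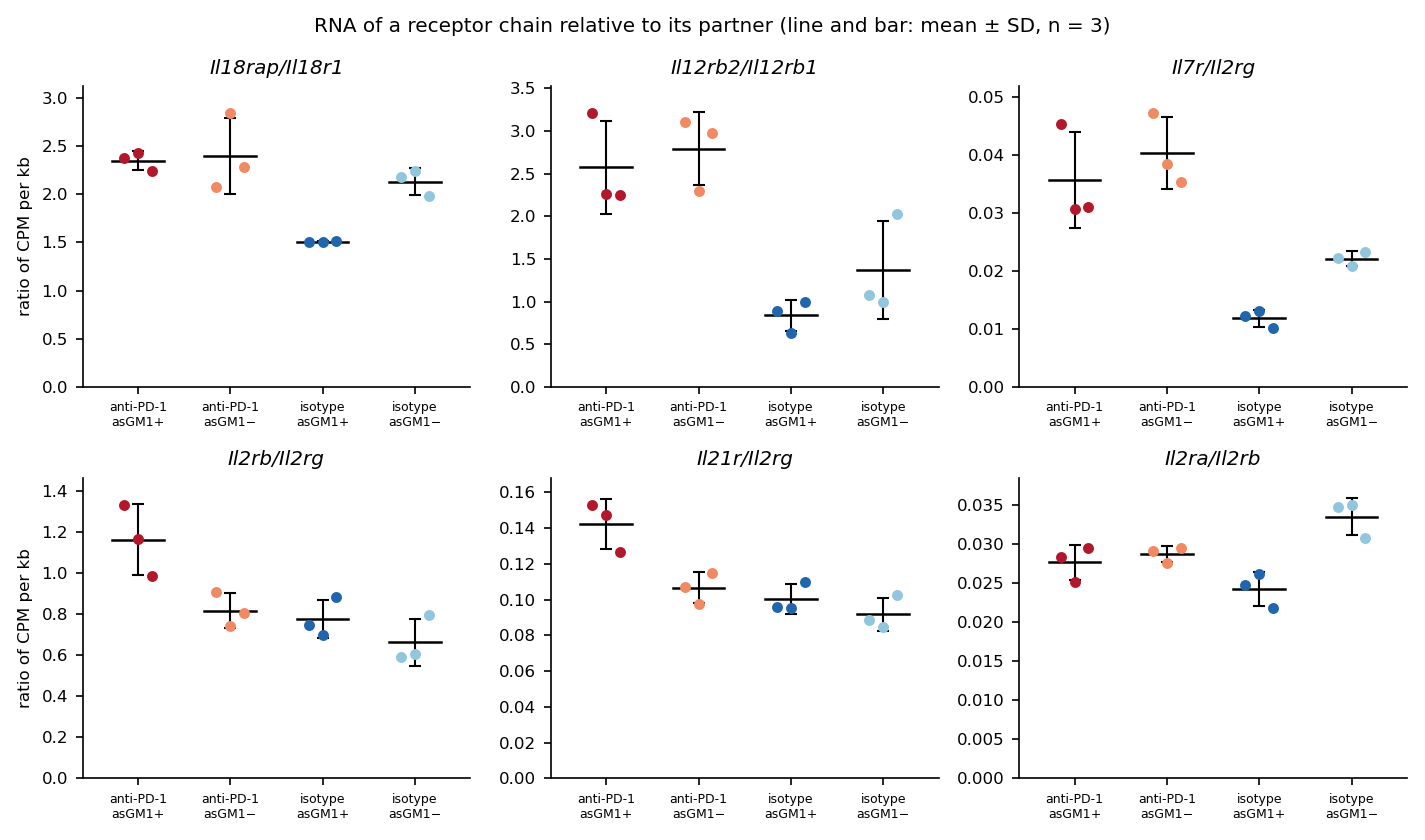
Ratio of CPM per kb of a receptor chain to a partner chain on a linear axis from 0, 1 panel per pair, with 1 point per library and mean ± SD (n = 3) for anti-PD-1 asGM1+, anti-PD-1 asGM1-, isotype asGM1+ and isotype asGM1- from left to right. Il18rap per Il18r1 is 1.499 to 1.513 in the isotype asGM1+ libraries and 1.98 to 2.84 in the others, and Il2rb per Il2rg is highest in anti-PD-1 asGM1+ cells.

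Downstream of these receptors, 5 of 11 JAK kinases and STAT factors rose with anti-PD-1 and none fell, averaged over the populations, where 9.12% of all genes were called higher and 9.02% lower (median 0.27, against -0.02 over all genes). Stat3, which serves IL-21 and IL-6, rose by 1.02 ± 0.14 on the log2 scale (edgeR adjusted p = 0.000533). Stat5b and Stat5a, used by IL-2, IL-7 and IL-15, rose by 0.69 ± 0.10 and 0.47 ± 0.08 (edgeR adjusted p = 0.000664 and 0.00208), and Stat4, used by IL-12, by 0.58 ± 0.11 (edgeR adjusted p = 0.00352). Of 13 genes of IL-18 and MyD88 signalling, 2 rose and none fell (median 0.15), a share near the background just given: Irak2, a kinase downstream of MyD88, by 0.81 ± 0.08 (edgeR adjusted p = 6.36e-05), and the ubiquitin ligase Traf6 by 0.49 ± 0.11 (edgeR adjusted p = 0.00729).

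Of 14 known targets of STAT5, 3 rose, 8 fell and 3 did not pass (median -0.68), where 9.12% of all genes were called higher and 9.02% lower. Bcl2, a survival gene that IL-7 is known to sustain, averaged 39.0 and 34.1 CPM in anti-PD-1 asGM1+ and asGM1- cells, against 177 and 164 CPM in isotype asGM1+ and asGM1- cells, a log2 fold change of -2.22 ± 0.11 (edgeR adjusted p = 7.62e-07). Lta, encoding lymphotoxin alpha, fell by 1.74 on the log2 scale and the feedback inhibitor Socs1 by 0.69, while the kinase Pim1 rose by 0.92 (edgeR adjusted p = 3.54e-06, 0.000136 and 0.000172). Of 8 IL-12 and STAT4 targets, 2 rose and 1 fell (median 0.13): the proprotein convertase Furin rose by 0.62 ± 0.12, Gadd45b rose by 0.62 ± 0.16 and Gadd45g fell by 1.55 on the log2 scale (edgeR adjusted p = 0.00454, 0.0200 and 9.22e-05). Ifng, a main output of IL-12, was at 422 and 338 CPM in anti-PD-1 asGM1+ and asGM1- cells, against 285 and 324 CPM in isotype asGM1+ and asGM1- cells, and did not pass (0.31 ± 0.12, edgeR adjusted p = 0.0831). Of 5 tested IL-4 and STAT6 targets, Gata3 rose (0.53 ± 0.10, edgeR adjusted p = 0.00412). Of 6 genes of receptor shedding and RNA decay, Rc3h1, which promotes RNA decay, rose by 0.44 and the protease Ctss fell by 0.40 (edgeR adjusted p = 0.0170 and 0.0229). Of 18 alternatives, the call was lost in 3 for Gadd45b, 6 for Ctss and 1 for Rc3h1.

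Of 13 regulators linked to the Il7r gene, 6 rose and 2 fell with anti-PD-1 (median 0.41; 9.12% and 9.02% of all genes), and activators and repressors were among those that rose. Foxp1, which restrains Il7r in naive T cells, rose by 0.41 ± 0.08 (edgeR adjusted p = 0.00341), and Gfi1, a repressor of Il7r in CD8+ T cells, by 0.55 ± 0.08 (edgeR adjusted p = 0.000538). Runx1 rose by 1.06 ± 0.16 (edgeR adjusted p = 0.00111). The activator Foxo1 also rose, by 0.49 ± 0.10 (edgeR adjusted p = 0.00468). Id3, a marker of memory precursors, fell by 2.77 on the log2 scale (edgeR adjusted p = 3.51e-05), at 0.203 and 1.41 CPM in anti-PD-1 asGM1+ and asGM1- cells, against 1.67 and 8.05 CPM in isotype asGM1+ and asGM1- cells. Between populations 3 of these 13 were lower in asGM1+ cells and none higher (median -0.18; 2.04% of all genes were called lower and 1.55% higher), namely Id3 (-2.53 ± 0.25), Foxp1 (-0.37 ± 0.08) and Foxo1, an activator of Il7r (-0.43 ± 0.10), with edgeR adjusted p = 0.000336, 0.0192 and 0.0294. The call for Foxo1 between populations was lost in 8 of 19 alternatives and that for Foxp1 in 3. No JAK or STAT gene and no IL-18 signalling gene passed between populations, and of the STAT5 list only Gzmb, encoding granzyme B, did (0.62 ± 0.10, edgeR adjusted p = 0.00727).

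**Figure D4:**
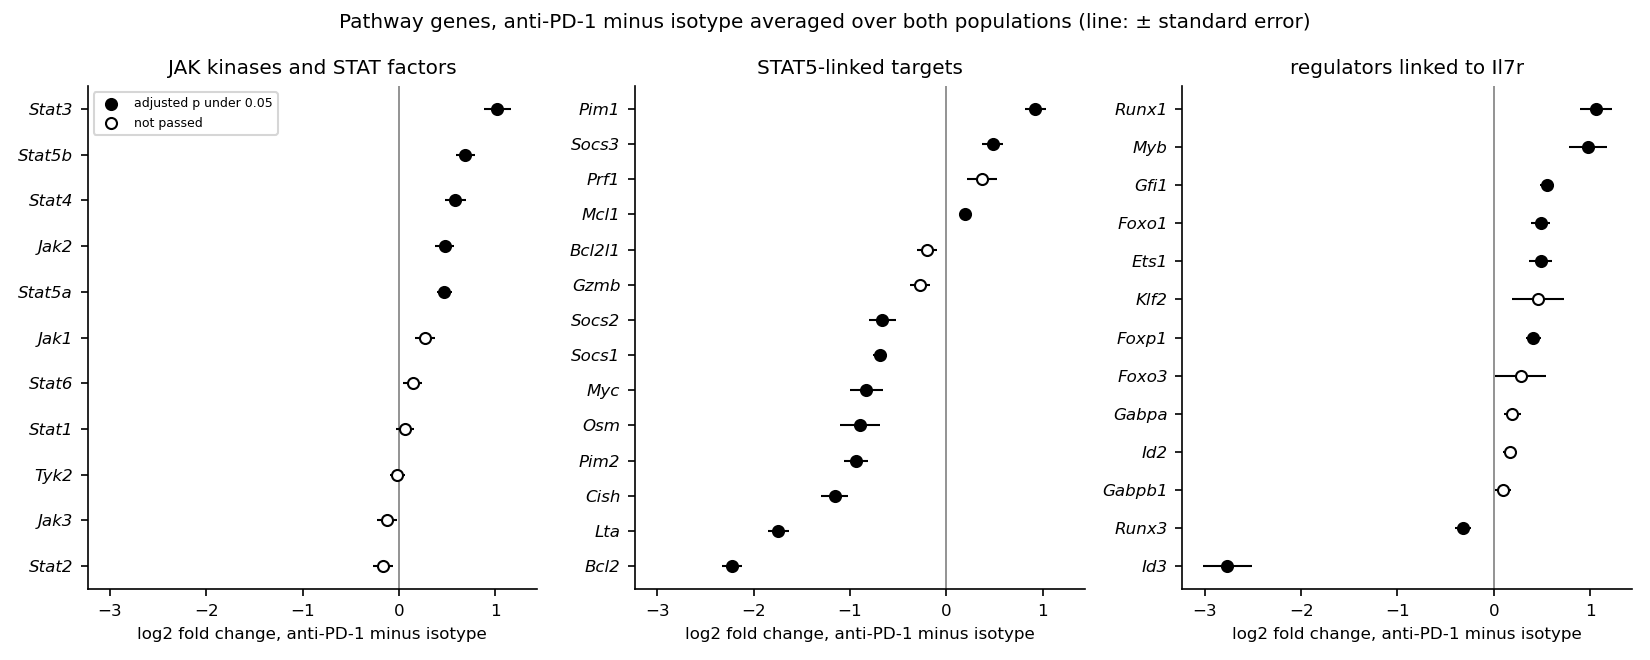
Log2 fold change of anti-PD-1 minus isotype, averaged over both populations, on the x axis with its standard error, for 11 JAK and STAT genes, 14 STAT5-linked targets and 13 regulators linked to Il7r; filled points passed an adjusted p under 0.05. Filled points of the JAK and STAT panel lie right of 0, with Stat3 at 1.02, and most filled points of the STAT5 panel lie left of it, with Bcl2 at -2.22.

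Among 27 tested receptor chains for other cytokines, 6 rose and 6 fell with anti-PD-1 (median 0.08), where 9.12% of all genes were called higher and 9.02% lower. Ifngr1, the ligand-binding chain for interferon gamma, rose by 0.85 ± 0.08, the IL-1 decoy receptor Il1r2 by 1.35 ± 0.16 and Il17ra by 0.69 ± 0.10 (edgeR adjusted p = 2.79e-05, 0.000208 and 0.000833). Between populations 4 were lower in asGM1+ cells and none higher (median -0.20; 2.04% and 1.55% of all genes). They were Csf2rb2 (-3.18 ± 0.36), Csf2rb (-1.39 ± 0.24), Lifr (-2.86 ± 0.59) and Il9r, with edgeR adjusted p = 0.000667, 0.00746, 0.0211 and 0.0263. Csf2rb and Csf2rb2 are near-identical copies whose reads the counting may have divided, and each of these 4 averaged below 10 CPM in every group. Ligands of the members were scarce in the sorted cells. Named after their values were seen, Il7, Il15, Il18, Il21, Il12a, Il12b and Il4 reached at most 1.29 CPM in any library, and Il2 reached at most 2.55 CPM. Of 12 tested ligand and antagonist genes, 1 passed with anti-PD-1 and 2 between populations, all lower. These were Il23a (-2.31 ± 0.35, edgeR adjusted p = 0.000960), Ebi3 (-0.98 ± 0.14, edgeR adjusted p = 0.00339) and Il12b, the last near 0 in all groups. Il23a was also low, averaging 0.290 and 0.168 CPM in anti-PD-1 asGM1+ and asGM1- cells, and 1.18 and 1.03 CPM in isotype asGM1+ and asGM1- cells.

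Markers of naive and memory T cells moved with Il7r. All marker counts below are for the averaged comparisons, in which 1.55% of all genes were called higher and 2.04% lower in asGM1+ cells, and 9.12% higher and 9.02% lower with anti-PD-1. The summed level of 10 such genes, Il7r not among them, was 352 to 435 CPM in anti-PD-1 asGM1+, 569.5 to 649 CPM in anti-PD-1 asGM1-, 116 to 173 CPM in isotype asGM1+ and 380 to 538 CPM in isotype asGM1- libraries. Averaged over treatments, 8 of 10 were lower in asGM1+ cells, among them Tcf7 (-3.01 ± 0.34), and with anti-PD-1 4 rose, among them Lef1 (2.13 ± 0.13), and Id3 fell. The order of the 4 groups differed from that of Il7r in the middle ranks, where anti-PD-1 asGM1+ cells averaged below isotype asGM1- cells in the summed markers and above them in Il7r. Of 10 markers of CD4+ and regulatory T cells, the latter known for high Il2ra and low Il7r, 3 were lower and none higher in asGM1+ cells. With anti-PD-1, Ctla4 rose (log2 fold change 1.42 ± 0.19) and Capg fell (-0.69 ± 0.09), and the others did not pass. Foxp3 ran at 3.54 to 7.13 CPM in anti-PD-1 asGM1+, 23.0 to 59.3 CPM in anti-PD-1 asGM1-, 1.91 to 4.32 CPM in isotype asGM1+ and 16.5 to 41.9 CPM in isotype asGM1- libraries. Il2ra showed no such difference. The summed level of these 10 markers was 2474 to 3201 and 3117 to 3671 CPM in anti-PD-1 asGM1+ and asGM1- libraries, and 3009 to 3512 and 2903 to 3592 CPM in isotype asGM1+ and asGM1- libraries. In every library the most abundant of them was Capg or Ctla4, and the sum did not follow Foxp3.

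Of 16 plasmacytoid dendritic cell genes, 12 were lower in asGM1+ cells, with Siglech at 0 to 0.489 CPM in asGM1+ and 25.1 to 71.3 CPM in asGM1- libraries and Spib at 0 in all 6 asGM1+ libraries, and 2 were higher and 4 lower with anti-PD-1. Their summed level was 1149.6 to 1346 and 1175 to 1359.8 CPM in anti-PD-1 asGM1+ and asGM1- libraries, and 847 to 938 and 1058 to 1347 CPM in isotype asGM1+ and asGM1- libraries. Irf8 was the most abundant of these genes in every library, and the sum did not follow Siglech or Spib. Of 18 macrophage and monocyte genes, 12 were higher in asGM1+ cells, with Csf1r at 8.32 to 14.8 CPM in asGM1+ and 1.11 to 3.93 CPM in asGM1- libraries, and summed levels overlapping in all groups, and 4 were higher and 2 lower with anti-PD-1. The most abundant of them in every library was Ly6c2, and the sum did not follow Csf1r. Of 8 heat shock genes, 6 were lower with anti-PD-1, and their sum was 848 to 1192 and 777 to 1189 CPM in anti-PD-1 asGM1+ and asGM1- libraries, against 1805 to 2053 and 1399 to 1864 CPM in isotype asGM1+ and asGM1- libraries. Of 11 tested natural killer and innate lymphoid genes, 3 were lower and none higher in asGM1+ cells, and 2 were higher and 3 lower with anti-PD-1. Their sum was 250.2 to 395 and 328 to 415 CPM in anti-PD-1 asGM1+ and asGM1- libraries, and 435 to 538 and 319 to 414 CPM in isotype asGM1+ and asGM1- libraries. Fcer1g, a signalling adaptor that macrophages also express, fell with anti-PD-1 by 2.01 on the log2 scale (edgeR adjusted p = 0.000424) and averaged 41.4 and 34.0 CPM in anti-PD-1 asGM1+ and asGM1- cells, against 255 and 89.3 CPM in isotype asGM1+ and asGM1- cells. Of 7 B cell genes 3 were tested: Cd79b was lower in asGM1+ cells (-1.32 ± 0.21, edgeR adjusted p = 0.00491) and Ighm, the immunoglobulin mu chain, was lower with anti-PD-1 (-1.28 ± 0.33, edgeR adjusted p = 0.0198). The B cell sum, mostly Ighm, was 18.3 to 100.4 and 61.6 to 121 CPM in anti-PD-1 asGM1+ and asGM1- libraries, against 135 to 175 and 191 to 213 CPM in isotype asGM1+ and asGM1- libraries. Of 9 conventional dendritic cell genes, 4 were lower and none higher in asGM1+ cells, with Flt3 at 0 to 0.555 CPM in asGM1+ and 3.46 to 7.72 CPM in asGM1- libraries, and 1 was higher and 3 lower with anti-PD-1. Their sum was 224 to 397 and 205 to 403 CPM in anti-PD-1 asGM1+ and asGM1- libraries, and 362 to 385 and 323 to 409.6 CPM in isotype asGM1+ and asGM1- libraries. Cd74 was the most abundant of them in every library, and the sum did not follow Flt3. Of 8 tested tumour epithelium and stroma genes none passed between populations and 1 was higher and 1 lower with anti-PD-1, with sums of 20.1 to 42.3 CPM over all libraries. The part of these markers in the values of Il7r, Il18rap, Il12rb2 and Il2rg was not tested. Without both anti-PD-1 libraries numbered 2, the average treatment log2 fold changes were 0.93 for Il7r, 0.51 for Il18rap, 1.66 for Il12rb2 and -0.36 for Il2rg, and all 4 calls held (edgeR adjusted p = 0.000960 to 0.0113).

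Genes whose pattern over the 12 libraries was most like a member's were found by the root mean square difference of centred log2 CPM among 8748 genes. For Il7r, which itself varied by 0.58, they were Kdm7a (0.18), Trp53inp1 (0.19) and Arhgap26 (0.21). For Il12rb2, which varied by 0.90, they were Hif1a (0.24), Slc37a2 (0.26) and Cpt1a (0.26), and for Il18rap, which varied by 0.35, Ano10, Zfp53 and Cd84 (0.12 each). For Il2rg, which varied by 0.21, they were Ube2w (0.08), Ctu2 (0.09) and Ccdc115 (0.09). Among the members themselves Il2rb and Il21r were the closest pair, at 0.11. These values are descriptions over libraries that share their groups.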

How the data were processed

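The deposited file is a matrix of integer counts, genes by libraries, made by the authors; HISAT2, StringTie and mm39 are named in the submitters' processing notes. TRIzol extraction and a SMARTer ultra-low-input kit are named in the labels' protocols, while versions, annotation, strand use and the treatment of reads with several matches are not given in the sources used here. From these counts, TMM-scaled CPM were computed, and CPM per kb used exon lengths of GENCODE M21 on GRCm38. Genes passing edgeR's default filter by group (18657) were tested with edgeR's quasi-likelihood test (R 4.3.3 with edgeR 4.0.16 and limma 3.58.1). All 12 libraries entered 1 model, with 8 residual degrees of freedom and Benjamini-Hochberg adjustment over all genes tested; standard errors are the log2 fold change over the root of F. The code was tested on simulated data with less spread between libraries than here and no pairing. That test checks the code and does not measure recovery or false calls in these data. The members, gene lists and alternatives were chosen with earlier results of these data known. From each pathway list, up to 4 genes per comparison with the smallest p among those that passed are named. Ifng, Foxo1 in the treatment comparison and the marker genes were named after their values were seen. Deviations from group means correlated between same-numbered asGM1+ and asGM1- libraries of a treatment (r = 0.121 to 0.298, 6 pairs) and not across treatments (-0.118 to 0.0497, 12 pairs), so numbers pair libraries within a treatment only. No columns were left unmapped. Individual values of some marker genes are not reported here. Alternatives were RLE scaling, no filter, DESeq2 1.42.0, limma voom, fewer libraries and replicate blocks.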

Additional observations from a re-analysis of the deposited data

Results flagged for a closer look

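Il2rg, the common gamma chain, was singled out because its population difference pointed in opposite directions under the 2 treatments: every asGM1+ library lay below every asGM1- library under anti-PD-1 and above every one under isotype. It averaged 1949 ± 193 CPM in asGM1+ and 2447 ± 193 CPM in asGM1- cells under anti-PD-1, and 2802 ± 60.2 CPM in asGM1+ and 2559.6 ± 139 CPM in asGM1- cells under isotype (SD, n = 3 each). The difference of the differences was -0.46 ± 0.13 on the log2 scale and did not pass (edgeR adjusted p = 0.470); with same-numbered libraries as a replicate block it was -0.46 (edgeR adjusted p = 0.0660).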

How the results depend on the processing

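Over all alternatives, 1318 values of a member in a comparison kept their side of the threshold, 10 gained a call and 12 lost one. Of the 1318, 39 changed sign, none of which passed on either side (adjusted p at least 0.854 as reported, log2 values of -0.26 to 0.25), among them Il12rb2 between populations. No value that passed changed sign. Counts of members that passed ran from 0 to 2 when single libraries were left out for the population difference under isotype (1 with only the 6 libraries compared) and from 0 to 1 for that under anti-PD-1 (2 with DESeq2, 2 with pairs as a replicate block, 1 with a replicate block for equal numbers in all groups). When single libraries were left out they ran from 2 to 3 for treatment in asGM1- cells and stayed at 4 for treatment in asGM1+ cells and averaged, at 2 for the averaged population difference and at 0 for the interaction. DESeq2 gave 5 members for treatment in asGM1+ cells, and DESeq2 and the replicate block within pairs gave 3 each for the averaged population difference, as that block did under isotype. The pairs lie within a treatment, so their block could not be fitted to treatment comparisons. The averaged treatment comparison thus counted both libraries of a pair as independent in every alternative without a replicate block, and its adjusted p values may be too small.

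Counts over all genes moved more. DESeq2 called 845 genes between populations under anti-PD-1, 821 under isotype and 1456 averaged, against 295, 244 and 670 by edgeR. For treatment it called 2280 in asGM1+ and 2753 in asGM1- cells, against 1255 and 1598, and 138 for the interaction, against 0. The replicate block within pairs called 891 genes under anti-PD-1, 736 under isotype, 1604 averaged and 5 for the interaction. With only the 6 libraries compared, 677 genes passed for treatment in asGM1+ cells and 93 for populations under isotype. Without both anti-PD-1 libraries numbered 2, 16 genes passed between populations under anti-PD-1 and 280 averaged, and 604, 791 and 2108 for treatment in asGM1+ cells, in asGM1- cells and averaged. Leaving out single libraries gave 49 to 354, 75 to 230 and 407 to 781 genes for populations under anti-PD-1, under isotype and averaged. It gave 674 to 1252, 730 to 1737 and 2428 to 3451 for treatment in asGM1+ cells, in asGM1- cells and averaged, against 3384 in all 12 libraries, and 0 to 0 for the interaction. With fewer libraries fewer degrees of freedom remain, and the cause of the other changes was not tested. Every member had at least 1600 counts in each library, so the spread between 3 libraries a group, more than depth, limits these comparisons.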
